A study of Mus musculus with 37 samples.

Results

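The genes described here are 10 cytosolic sulfotransferases of mouse liver: Sult2a1, Sult2a2, Sult2a5, Sult2a7, Sult2a8, Sult3a1, Sult1e1, Sult1a1, Sult1d1 and Sult5a1. They were taken by symbol from the 24421 gene rows of the deposited count files, in which 19 rows carry a Sult symbol. All 10 had enough counts to enter the tests. They were chosen by their measured levels and fold changes between the groups of these same 37 livers, so levels and fold changes are given as descriptions. No p-value is printed for a member, and any count or naming of members by a p threshold is a description only.

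Cytosolic sulfotransferases move a sulfonate group from the donor 3′-phosphoadenosine 5′-phosphosulfate (PAPS) onto small hydroxyl or amine compounds. Sulfonation makes steroids, bile acids, phenols and drugs more water soluble and in most cases ends their signalling, and sulfatases can reverse it. Enzymes of the Sult2a subfamily act on hydroxysteroids such as dehydroepiandrosterone and on bile acids, Sult1e1 acts on estrogens, Sult1a1 on phenols and Sult1d1 on catecholamines and other phenols. The grouping is therefore wider than steroids and bile acids alone. In rodent liver several of these genes are read at very different levels in males and females, a difference set by the pattern of growth hormone release and by STAT5B, the transcription factor that growth hormone activates in hepatocytes.

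The study compared STAT5B carrying the Y665F or Y665H substitution against wild type (WT). Total RNA was sequenced from the livers of C57BL/6 mice aged 2 months, 1 library per mouse. There were 6 WT males, 9 STAT5B-Y665F males, 4 STAT5B-Y665H males, 6 WT females, 6 STAT5B-Y665F females and 6 STAT5B-Y665H females, and no group received a treatment. The labels do not say whether 1 or both alleles carried the substitution, or which mice were littermates. Spread and p-values therefore describe these samples only.

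Several members are near-copies of each other, which bears on how far their counts can be told apart, so their sequences come first. The 8 Sult2a rows of the files lie in 1 cluster of 869057 bases, chr7:13623967-14493023 in GRCm38 (the assembly called mm10), and 5 of them are members. Sult2a1 lies at chr7:13796246-13837410 on the minus strand, Sult2a2 at chr7:13733506-13779637 on the plus strand, Sult2a5 at chr7:13623967-13670807 on the plus strand, Sult2a7 at chr7:14465051-14493023 and Sult2a8 at chr7:14410686-14446780, both on the minus strand. Sult3a1 lies apart at chr10:33851020-33879475, Sult1d1 and Sult1e1 are close to each other on chromosome 5, Sult1a1 is on chromosome 7 outside the Sult2a cluster, and Sult5a1 is on chromosome 8.

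Over 582 aligned coding bases Sult2a1 and Sult2a2 differed at 12, an identity of 97.9% (GENCODE M21 transcripts). The identity was 94.9% between Sult2a1 and Sult2a5 and 95.7% between Sult2a2 and Sult2a5. It was 81.6% between Sult2a1 and Sult2a7 and 70.4% between Sult2a1 and Sult2a8, so these last copies are much easier to tell apart. A stretch of 60 coding bases shows the pattern. It is given on the coding strand from base 330 of the coding sequence (base 327 for Sult2a7), it joins neighbouring coding exons across an intron, and capitals mark each base that differs from Sult2a1, at 2, 3, 10 and 8 places in the order given.
Sult2a1: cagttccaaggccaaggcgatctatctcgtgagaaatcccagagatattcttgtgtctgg
Sult2a2: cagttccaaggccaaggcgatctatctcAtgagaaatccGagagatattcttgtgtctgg
Sult2a5: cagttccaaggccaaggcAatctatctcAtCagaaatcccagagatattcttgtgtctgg
Sult2a7: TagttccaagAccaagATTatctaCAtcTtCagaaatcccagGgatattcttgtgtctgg
Sult2a8: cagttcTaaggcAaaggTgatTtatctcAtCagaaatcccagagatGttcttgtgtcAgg

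Of all 50-base windows of the annotated transcripts, 66.8% were found in no other gene for Sult2a1, 37.9% for Sult2a2 and 65.5% for Sult2a5. With windows of 100 bases the shares were 88.6%, 65.4% and 83.4%. Sult2a7 had 100% at both lengths, Sult2a8 98.0% and 100%, and Sult3a1 93.8% and 100%. Sult2a2 is the member whose counts rest on the shortest stretch of its own. Reads that fit several copies are not counted for any gene by the usual settings of the counting program, but the settings used are not given in the sources used here, so the levels of Sult2a1, Sult2a2 and Sult2a5 are uncertain to that extent.

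**Figure D1:**
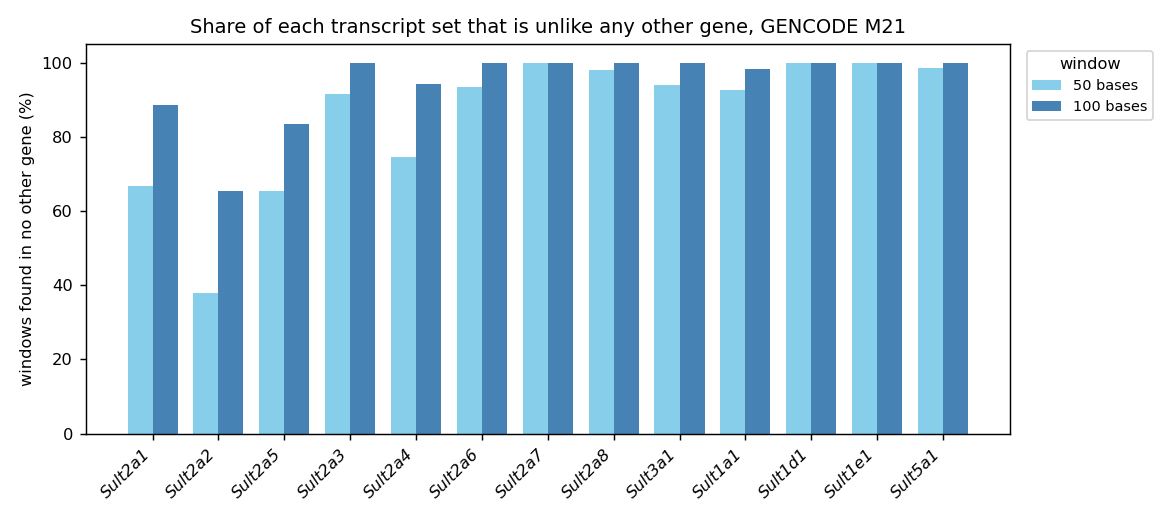
Share of the 50-base (light) and 100-base (dark) windows of each gene's annotated transcripts that occur in no other gene, in percent, for the 10 members and for Sult2a3, Sult2a4 and Sult2a6. Sult2a2 stands lowest with 37.9% and 65.4%, while Sult2a7, Sult1d1 and Sult1e1 reach 100% at both lengths.

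Promoter windows from 250 bases before to 50 after the start site were taken from RefSeq (GRCm38.p6) for 7 of the 10 members, in 8 windows since Sult2a8 has a pair of start sites; Sult2a1, Sult2a2 and Sult2a7 had no match. They are shown because Sult2a5 and the non-member copies Sult2a3, Sult2a4 and Sult2a6 had counts in every Y665F male and 0 counts in WT males. Sult2a8 had counts in every male and was lower in Y665F males than in WT males. Whether the promoter letters bear on these levels was not tested. Rodent Sult2a promoters are known for an inverted repeat that bile acid and xenobiotic receptors bind. The motif GTCATGAACT was read from the Sult2a5 window itself (chr7:13623787-13623826, plus strand) after these sequences had been seen. Its presence in Sult2a5 was thus fixed in advance and is no result. Searched on both strands, it occurs in 0.0731% of 32851 RefSeq promoter windows of 300 bases, a share that includes the Sult2a windows holding it. Besides Sult2a5, it was present in Sult2a4 (chr7:13989799-13989838) and Sult2a6 (chr7:14255055-14255094), both on the minus strand. Sult2a3 (chr7:14123212-14123251, minus strand) held 9 of the 10 letters, and the best places in the Sult2a8 windows held 6 and 8, the latter at chr7:14438649-14438688 on the minus strand, inside the annotated gene span. In the stretches below, 40 bases each, capitals mark letters equal to the motif at the best place.
Sult2a5: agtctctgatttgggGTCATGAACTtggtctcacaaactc
Sult2a4: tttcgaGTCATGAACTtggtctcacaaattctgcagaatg
Sult2a6: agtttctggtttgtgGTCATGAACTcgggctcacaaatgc
Sult2a3: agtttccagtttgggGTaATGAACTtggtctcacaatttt
Sult2a8: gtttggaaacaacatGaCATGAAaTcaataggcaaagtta

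The first base of the repeat stands 165 bases before the start site in Sult2a5. Sult3a1 was the only member whose window held TTCNNNGAA, the letters that STAT5 proteins bind, as TTCTTTGAA at -109 from the start site of that window, which lies inside the annotated gene span given above and not at its first base. It also held ATTGAT, a core that the factor HNF6 binds, at -74, and the second Sult2a8 window held that core on the other strand. TTCNNNGAA occurs in 8.30% and ATTGAT in 7.54% of all promoter windows of that length. The 53 bases that hold both in Sult3a1 (chr10:33857607-33857659, plus strand, GRCm38.p6) have them in capitals.
Sult3a1: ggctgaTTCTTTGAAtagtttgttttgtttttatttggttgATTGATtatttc

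Each male library had 49141951 to 73937726 counts in gene rows, each female library 24388434 to 40864173. These ranges do not overlap, so sex and any difference in processing that follows sex cannot be told apart. Counting intervals below are exact 95% intervals, the limit for a count of 0 is 3 counts over the group, and both cover counting error only. Levels are in CPM, a gene's counts over those of all genes tested at a common scale, with TMM scaling. Hepatocyte markers (6 of 7 in the files) summed to 60139.6 CPM or more in every library. The T cell sum (3 of 4 genes) was 2.70 to 7.32 CPM in Y665F males against 0.735 to 0.951 in WT males, and 2.74 to 4.29 in Y665F females against 1.14 to 1.39 in WT females. It was 0.503 to 0.720 in Y665H males and 0.673 to 1.22 in Y665H females. The hepatocyte sum itself was 115332 to 131299 CPM in Y665F males against 69679.8 to 78357 in WT males, and 181877 to 213401 in Y665F females against 94533 to 119075 in WT females. Kupffer cell markers (4 genes) summed to 131 to 304 CPM in Y665F males against 82.6 to 126 in WT males. Pancreas acinar markers (4 genes) summed to 4.79 to 9.07 CPM in Y665F males against 15.2 to 24.0 in WT males, and to 3.84 to 5.92 in Y665F females against 12.3 to 22.4 in WT females. Over all libraries, cholangiocyte markers (5 genes) summed to 22.4 to 48.0 CPM, endothelial markers (4 genes) to 141 to 392 CPM and stellate cell markers (4 genes) to 194 to 345 CPM. Stellate markers were 230.3 to 307 CPM in Y665F males against 194 to 225 in WT males, and endothelial markers 186 to 238 CPM in Y665H males against 263 to 296 in WT males, in both cases with no overlap. Kidney tubule markers (4 genes) stayed at or under 1.86 CPM, with Kap at 0 in 5 of 6 groups, and adipocyte markers (3 genes) at or under 0.651 CPM, with Lep at 0 in 5 of 6 groups. Whether these shifts have a part in the sulfotransferase levels was not tested. In whole liver, fewer cells of a type and less RNA per cell cannot be told apart.

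The members fell into different patterns. Sult2a1, Sult2a2, Sult2a5 and Sult3a1 were near or at 0 in WT males, were present in WT females, and were high in Y665F livers of both sexes. Sult2a8 was high in every group and highest in WT males, while Sult2a7 went with Y665H. Sult1a1, Sult1d1, Sult1e1 and Sult5a1 differed less or were low throughout. Below, "called" means that edgeR's quasi-likelihood test gave an adjusted p-value under 0.05 among the 15152 genes tested. In Y665F males against WT males 6 members were called higher and 1 lower, where 52.5% of all genes were called (27.2% higher and 25.3% lower). In Y665F females 3 were called higher and 2 lower, where 41% of all genes were called (17.8% higher and 23.3% lower). In Y665H males 1 member was called, higher, where 8.4% of all genes were called (5.22% higher and 3.18% lower), and in Y665H females 2 were called higher and 2 lower, where 7.5% of all genes were called (4.4% higher and 3.1% lower). Since these contrasts chose the members, nothing is read from the counts. The median log2 fold change of the 10 members was 2.06 in Y665F males, -0.01 in Y665F females, 0.27 in Y665H males and -0.29 in Y665H females. Placing genes with 0 counts in a group at the bound that 3 counts allow left these medians as they are. The median over all genes tested was -0.01, -0.02, 0.01 and 0.00.

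**Figure D2:**
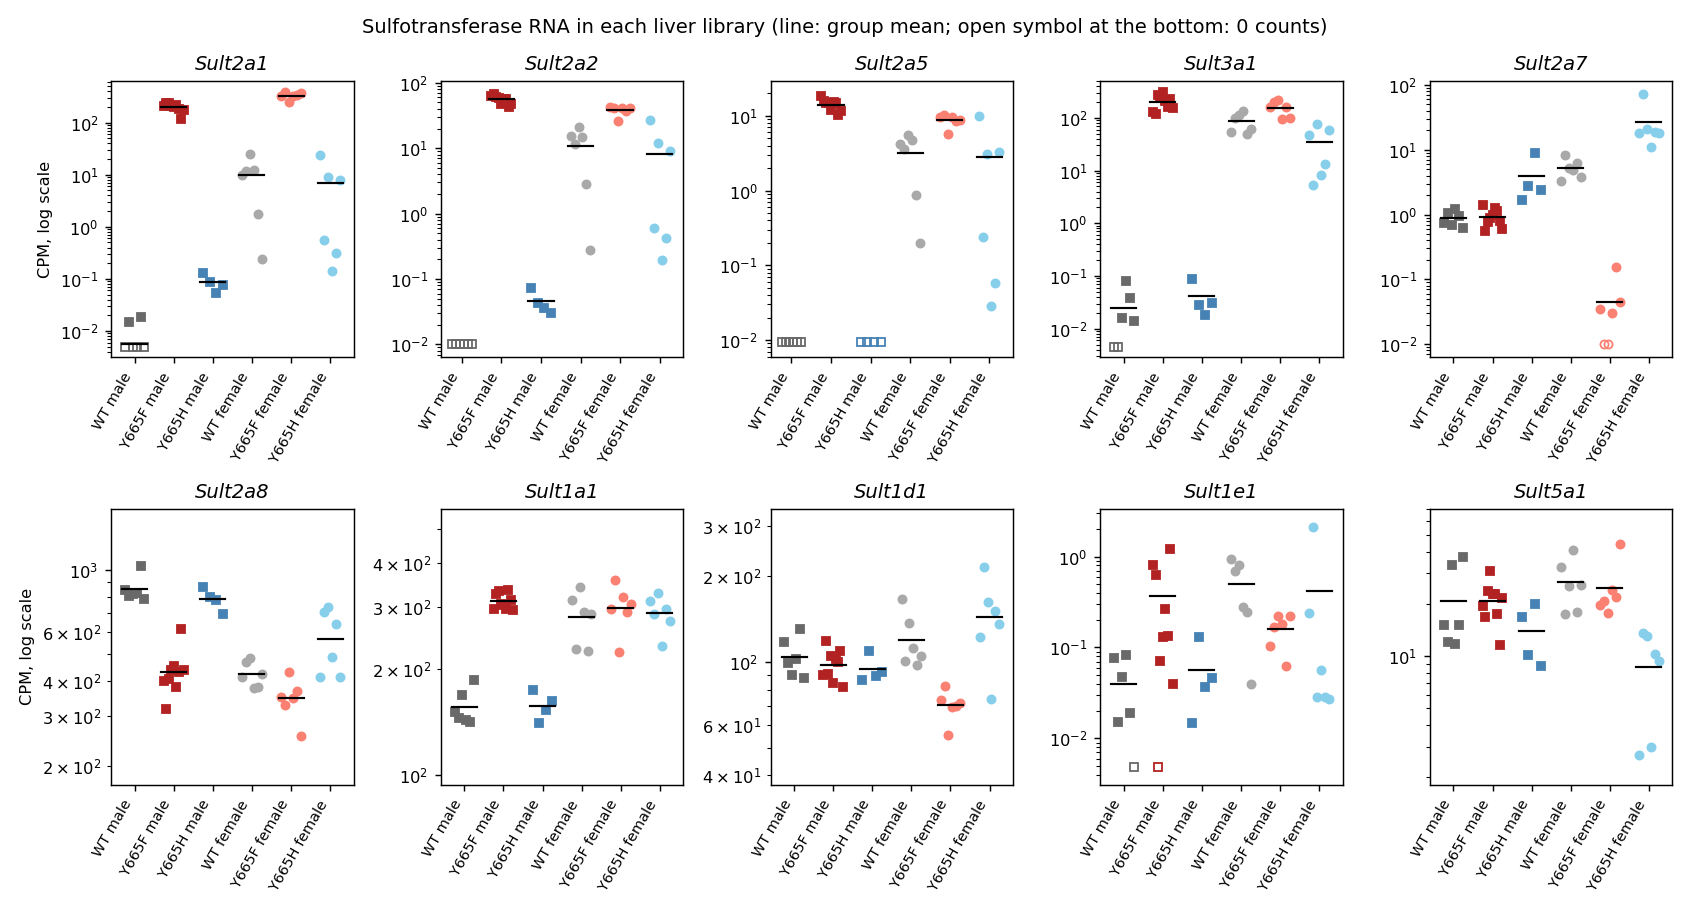
Level of each member in each of the 37 libraries in CPM on log axes, with the groups along the horizontal axis, squares for males, circles for females, a line at the group mean and open symbols at the bottom for libraries with 0 counts. Sult2a1, Sult2a2, Sult2a5 and Sult3a1 are at or near the bottom in WT and Y665H males and high in Y665F males, while Sult2a8 is highest in WT and Y665H males.

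Sult2a1, a hydroxysteroid and bile acid sulfotransferase, had 2 counts in all 6 WT male libraries together and 3 to 9 counts in each Y665H male. Its levels in Y665H males were 0.132, 0.0861, 0.0544 and 0.0761 CPM. In Y665F males the lowest, median and highest levels were 117, 205 and 239 CPM, and in Y665F females 246, 330.4 and 392 CPM. WT females had 0.236, 10.7 and 24.6 CPM and Y665H females 0.141, 4.29 and 24.4 CPM. The order of the group means was Y665F females, Y665F males, WT females, Y665H females, Y665H males and WT males. Of the neighbours in that order, WT and Y665H females overlapped and no other pair did. The pooled CPM of Y665H males was 17.0 times that of WT males (interval 4.20 to 149), which rests on 23 counts against 2. In females the Y665F mean of 329.9 ± 49.5 CPM (SD, n = 6) was 32.9 times the WT mean of 10.0 ± 8.76 CPM (SD, n = 6), a fitted log2 fold change of 5.02 with a standard error (SE) of 0.63.

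Sult2a2, a hydroxysteroid sulfotransferase of the same cluster, had 0 counts in all 6 WT males, which allows up to 0.00785 CPM. Y665H males had 5, 3, 2 and 2 counts, 0.0735, 0.0431, 0.0363 and 0.0304 CPM. Their pooled level of 0.0464 CPM (interval 0.0240 to 0.0811) was 5.91 times that limit. All 4 Y665H males thus had counts where no WT male had any, at levels of a few counts per library. In Y665F males the lowest, median and highest levels were 43.0, 57.0 and 66.5 CPM, and in Y665F females 25.8, 41.5 and 42.2 CPM. Unlike Sult2a1, Sult2a2 was thus higher in Y665F males than in Y665F females, with no overlap but only 43.0 against 42.2 CPM at the closest. The log2 fold change of Y665F males against Y665F females was 0.54 (SE 0.51) for Sult2a2 and -0.74 (SE 0.47) for Sult2a1. Neither was called. WT females ranged from 0.275 to 21.0 CPM with a median of 13.1, and Y665H females from 0.197 to 27.4 CPM with a median of 4.82. The log2 fold change in Y665F females was 1.79 (SE 0.59).

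Sult2a5 had 0 counts in all WT and all Y665H males, which allows up to 0.00785 and 0.0116 CPM. Y665F males lay between 10.4 and 18.2 CPM with a median of 14.8, and their pooled level of 14.2 CPM was 1802 times the WT limit. Y665F females lay between 5.73 and 10.3 CPM, WT females between 0.197 and 5.52 CPM and Y665H females between 0.0282 and 10.0 CPM. Every Y665F female was above every WT female, by 5.73 against 5.52 CPM at the closest. The log2 fold change in Y665F females was 1.43 (SE 0.58) and its call was lost when single libraries were left out, as given in the closing section.

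The balance between the near-copies differed by group. Within a library, Sult2a1 had 0.857 ± 0.210 times the counts of Sult2a2 in WT females (SD, n = 6) and 0.816 ± 0.0972 times in Y665H females (SD, n = 6). The ratio was 3.54 ± 0.449 in Y665F males (SD, n = 9) and 8.70 ± 0.842 in Y665F females (SD, n = 6). WT females spanned 0.637 to 1.17, Y665F males 2.72 to 4.23 and Y665F females 7.59 to 9.54, so these groups did not overlap. The ratio of Sult2a5 to Sult2a2 moved far less, with 0.253 ± 0.0172 in Y665F males (SD, n = 9), 0.229 ± 0.0125 in Y665F females (SD, n = 6) and 0.367 ± 0.172 in WT females (SD, n = 6). WT females with little Sult2a1 (1.78 and 0.236 CPM) had ratios of 0.637, the lowest of the group, and 0.857, while the other 4 spanned 0.642 to 1.17.  The ratio is a count ratio and not a ratio of molecules, as the copies differ in unique length.

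**Figure D3:**
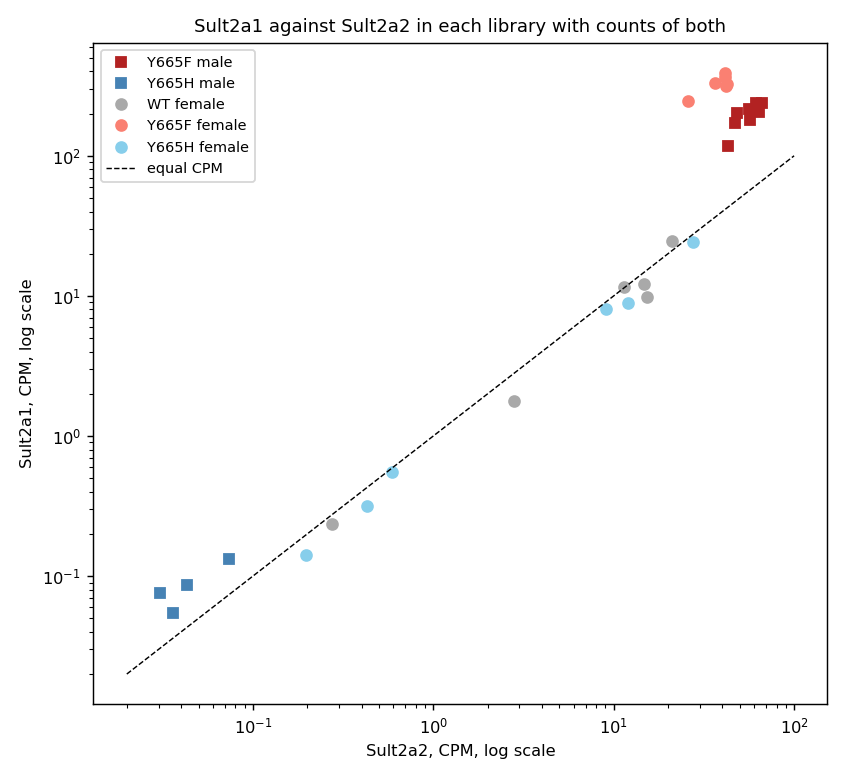
Sult2a1 (vertical) against Sult2a2 (horizontal) in CPM on log axes, 1 point per library with counts of both, squares for males and circles for females, and a dashed line at equal levels. WT and Y665H females lie close to the line at all their levels, Y665H males lie slightly above it at a few counts each, and Y665F libraries lie above it, with the Y665F females farthest at ratios of 7.59 to 9.54.

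The female groups without Y665F were uneven. Among WT females, replicates 5 and 6 had Sult2a1 at 1.78 and 0.236 CPM while the other 4 had 9.83 to 24.6 CPM. The same mice had the lowest Sult2a2 (2.79 and 0.275 CPM) and Sult2a5 (0.860 and 0.197 CPM) of the group. Among Y665H females, replicates 2, 4 and 5 had Sult2a1 at 0.554, 0.141 and 0.316 CPM, against 24.4, 8.87 and 8.02 CPM in replicates 1, 3 and 6. Sult3a1 was low in the same 3 mice, at 5.34, 8.17 and 13.3 CPM against 47.2 to 77.1 CPM in the others. Cux2, a transcription factor of female liver, had 80.8, 23.2, 43.0, 6.31, 21.2 and 9.62 CPM in Y665H female replicates 1 to 6, so that replicate 6 had little Cux2 with Sult2a1, Sult2a2 and Sult2a5 near the level of replicate 3. In WT females Cux2 ranged from 48.1 to 104 CPM and its lowest values were in replicates 5 and 6. The mice of a group have no order.

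**Figure D4:**
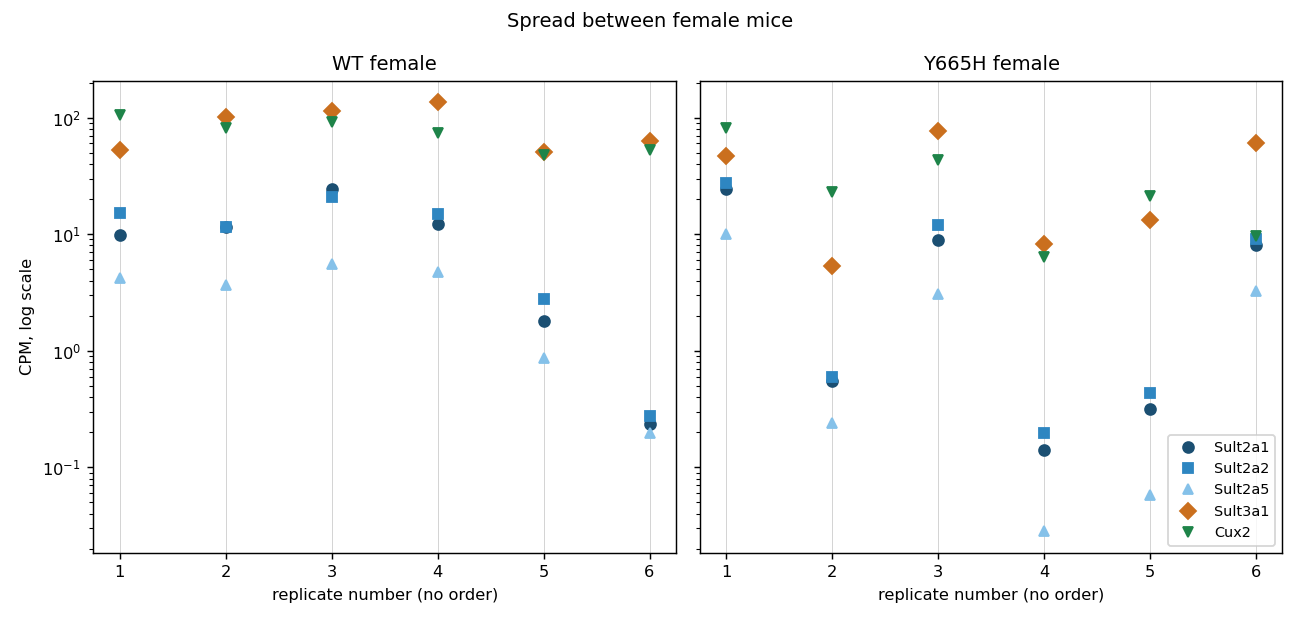
Levels of Sult2a1, Sult2a2, Sult2a5, Sult3a1 and Cux2 in CPM on a log axis in each of the 6 WT (left) and 6 Y665H (right) female libraries, by replicate number, which carries no order. The 3 Sult2a copies keep their order within most mice while their level spans 0.141 to 24.4 CPM for Sult2a1 in Y665H females.

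Sult3a1, a sulfotransferase of the Sult3 family that has been described as acting on amines, had 0 to 5 counts in each WT male and 1 to 6 in each Y665H male. Y665F males had 118, 206 and 313 CPM as the lowest, median and highest levels, and the ratio of pooled CPM to WT males was 8609.8 (interval 4535 to 18829). WT male replicate 4 held 5 of the WT counts, and without it the log2 fold change of 12.93 became 13.71. In females the lowest, median and highest levels were 97.0, 159.7 and 222 CPM with Y665F, 50.4, 81.9 and 135 CPM in WT and 5.34, 30.2 and 77.1 CPM with Y665H. Y665F and WT females overlapped, as did WT and Y665H females, while every WT female was far above every WT male. The log2 fold change was 0.87 (SE 0.39) for Y665F females, which was not called, and -1.29 (SE 0.40) for Y665H females, which was called lower. The call was lost in 6 of 12 fits with 1 library left out, named in the closing section.

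Sult2a7 was the member that went with Y665H. In Y665H males it stood at 1.68, 2.73, 8.96 and 2.40 CPM, against 0.631 to 1.21 CPM in WT males, with no overlap. In Y665H females it stood at 17.9, 71.7, 21.0, 11.2, 19.1 and 17.9 CPM, against 3.25 to 8.23 CPM in WT females, again with no overlap. The log2 fold changes were 2.16 (SE 0.42) in males and 2.31 (SE 0.35) in females, and without Y665H male replicate 3, the highest, the male value was 1.37. Without Y665H female replicate 2, the highest, the female value was 1.71. In Y665F females the gene was almost silent, with 0.0349, 0, 0, 0.0301, 0.156 and 0.0447 CPM from 8 counts in all, a log2 fold change of -6.77 (SE 0.72), or -7.81 without replicate 5. In Y665F males it stayed at 0.563 to 1.41 CPM, overlapping WT males (log2 fold change 0.10, SE 0.39). The order of the group means was Y665H females, WT females, Y665H males, Y665F males, WT males and Y665F females. WT females overlapped Y665H males and Y665F males overlapped WT males, and no other neighbours did. Both Y665H male libraries with the most Sult2a7 (replicates 3 and 2) also had the highest Saa2 of their group, an acute phase gene chosen after its values were seen, at 500 and 646 CPM against WT males at or under 9.77 CPM. Y665F male replicate 2, however, had the highest Saa2 of all libraries (774 CPM) and the lowest Sult2a7 of its group (0.563 CPM). The part of that in the Sult2a7 level was not tested.

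Sult2a8, which sulfonates bile acids in mouse liver, ran the other way. WT males had 784, 821 and 1029 CPM as the lowest, median and highest levels, and Y665H males 866, 801, 782 and 697 CPM. Y665F males had 319.7, 432 and 615 CPM, all below every WT male. Their mean of 431 ± 79.8 CPM (SD, n = 9) was near that of WT females, 425 ± 43.9 CPM (SD, n = 6), and the ranges overlapped. In males the log2 fold change was -0.98 (SE 0.12) with Y665F and -0.11 (SE 0.15) with Y665H. In females it was -0.29 (SE 0.13) with Y665F, not called, and 0.41 (SE 0.13) with Y665H, called higher. That last call was lost in 8 of 12 fits with 1 library left out, named in the closing section. Y665F females had 256 to 430.2 CPM and Y665H females 415 to 733 CPM.

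The make-up of the Sult2a counts differed between groups. These are shares of counts, not of molecules, since the annotated exons of Sult2a8 (3284 bases) are longer than those of Sult2a1 (1020 bases). The share of Sult2a8 among the counts of the 8 Sult2a rows was 99.9% ± 0.0283 in WT males and 99.5% ± 0.422 in Y665H males (SD, n = 6 and 4). Among females it was 93.6% ± 3.65 in WT and 92.4% ± 5.19 with Y665H (SD, n = 6 each). With Y665F it was 60.4% ± 7.87 in males (SD, n = 9) and 47.7% ± 7.61 in females (SD, n = 6). The 8 rows summed to 852 ± 89.9 CPM in WT males, 710.3 ± 42.6 in Y665F males, 791 ± 69.8 in Y665H males, 455 ± 56.7 in WT females, 729 ± 36.2 in Y665F females and 612 ± 148 in Y665H females (SD, with the n above). In WT the male sum was above the female sum in every library, at 784 CPM or more against 541 or less. With Y665F the sums of both sexes overlapped. The sum does not depend on which near-copy a read is given to, though it leaves out reads that were not counted for any gene.

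Among the Sult1 members, Sult1a1, the main phenol sulfotransferase, had 141 to 187 CPM in WT males, 140.3 to 174 CPM in Y665H males and 294 to 336 CPM in Y665F males. All 9 Y665F males were above all WT males, by 2.00 times on the means (312 ± 16.5 against 156 ± 18.1 CPM, SD, n = 9 and 6), and were at the level of females, whose 3 groups had means of 281, 289 and 299.5 CPM. The log2 fold change was 1.00 (SE 0.09) in Y665F males and between 0.01 and 0.09 in the other comparisons with WT. Sult1d1 had means of 104 ± 16.6 CPM in WT males, 98.1 ± 12.1 in Y665F males and 94.4 ± 10.1 in Y665H males (SD, n = 6, 9 and 4), which overlapped. Every Y665F female, at 55.5 to 82.3 CPM, was below every WT female, at 97.8 to 167 CPM, with a log2 fold change of -0.77 (SE 0.16). Y665H females spread from 74.2 to 216 CPM.

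Sult1e1, the estrogen sulfotransferase, was rare everywhere. It had 0 to 5 counts in each WT male, and 0 to 81 in Y665F males, where replicates 1, 2 and 8 had 58, 38 and 81 counts and the other 6 had 0 to 19. The log2 fold change of 3.11 (SE 0.96) in Y665F males therefore rests on few mice, and the groups overlapped. WT females had 0.0393 to 0.940 CPM and Y665F females 0.0623 to 0.223 CPM. In Y665H females 1 library, replicate 2, had 2.10 CPM and the other 5 at most 0.239 CPM. Sult5a1 had means of 20.8 ± 11.4 CPM in WT males and 20.8 ± 5.36 in Y665F males (SD, n = 6 and 9), while the female means were 26.6 ± 8.93 for WT and 24.7 ± 9.77 for Y665F (SD, n = 6 each). Y665H females, at 2.71, 13.6, 13.0, 2.98, 10.3 and 9.32 CPM, were all below every WT female, the lowest of which had 17.5 CPM, and the log2 fold change was -1.64 (SE 0.34). Y665H males had 16.8, 10.2, 20.0 and 8.77 CPM and overlapped WT males.

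**Figure D5:**
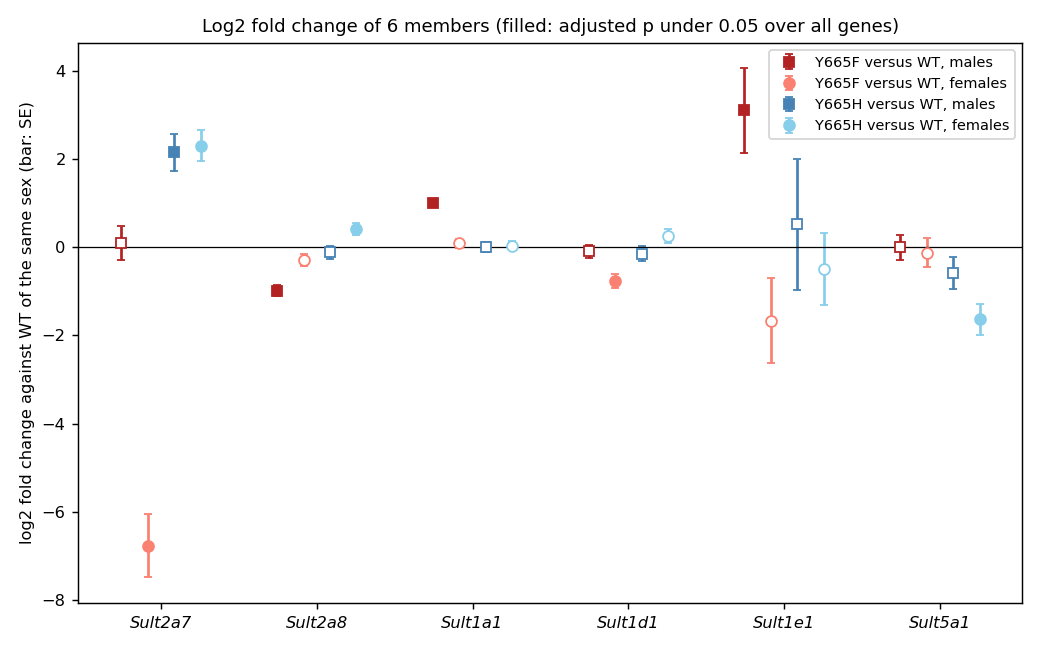
Fitted log2 fold change with its SE for 6 members (those other than Sult2a1, Sult2a2, Sult2a5 and Sult3a1, which were at or near 0 in WT males), in the 4 comparisons with WT of the same sex (squares males, circles females), filled, as a description only, where the adjusted p-value over all genes was under 0.05. Sult2a7 is up by 2.16 and 2.31 with Y665H and down to -6.77 in Y665F females, and Sult5a1 is at -1.64 in Y665H females.

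By the overlap of libraries, 5 members lay wholly above and 1 wholly below WT in Y665F males (26.4% of all genes tested lay wholly apart in either direction), and 3 above and 2 below in Y665F females (19.9%). In Y665H males 3 lay wholly above, Sult2a1, Sult2a2 and Sult2a7 (12.5%), and in Y665H females 1 above and 1 below, Sult2a7 and Sult5a1 (1.59%).

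Between the sexes of WT mice, 7 members were called lower and 1, Sult2a8, higher in males, where 49.7% of all genes were called (23% higher and 26.8% lower), and 6 lay wholly below and 1 wholly above (29.8% of all genes lay wholly apart). Sult2a8 was 2.00 times as high in WT males as in WT females on the means, a log2 fold change of 1.00 (SE 0.13), and Sult1a1 was lower by a log2 fold change of -0.85 (SE 0.10). Sult2a2 and Sult2a5 had 0 counts in WT males, and their pooled CPM in WT females was 1460.4 and 429 times the WT male limit. In Y665H mice 7 were called lower and 1 higher in males, with Sult1d1 in place of Sult1e1 among the lower ones, where 30.9% were called (14.2% higher and 16.7% lower), and 6 lay wholly below (13.7%). Sult2a1 there had a log2 fold change of -6.29 (SE 1.13), or -5.33 without Y665H female replicate 1, and Sult3a1 of -9.62 (SE 0.89), or -10.25 without Y665H male replicate 1. In Y665F mice 3 were called, all higher in males, where 43.1% of all genes were called (22.8% higher and 20.3% lower): Sult2a7 by 4.27 (SE 0.87), Sult1d1 by 0.48 (SE 0.14) and Sult2a8 by 0.31 (SE 0.12) on the log2 scale. Without Y665F female replicate 5 the Sult2a7 value was 5.30. Sult2a8 lost its call in 6 of 15 fits with 1 library left out. There 3 members lay wholly above and 1, Sult2a1, wholly below (18%).

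As a description, since these contrasts chose the members, the interaction term (the Y665F effect in males minus that in females) was called for 9 of 10 members, 8 higher and 1, Sult2a8, lower, where 27.7% of all genes were called (16.1% higher and 11.5% lower). For Sult1a1 the interaction was 0.91 and for Sult1d1 0.67 on the log2 scale. For Sult2a7 it was 6.87, or 7.91 without Y665F female replicate 5. Sult5a1 was not called. For Y665H edgeR called 0 members in the interaction, where 5.24% of all genes were called (2.94% higher and 2.3% lower). At an unadjusted p under 0.05 there were 2, Sult2a8 and Sult5a1, and DESeq2 called 2, Sult2a1 and Sult2a2. The comparisons of Y665F and of Y665H with WT share their WT mice.

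Levels of different genes can be set side by side only per length. Divided by the length of all annotated exons, Sult2a8 stood at 259 CPM per kilobase in WT males and Sult1a1 at 104. In Y665F males Sult1a1 had 207, Sult2a1 194, Sult3a1 176 and Sult2a8 131 CPM per kilobase. In Y665F females Sult2a1 had 323 ± 48.5, Sult1a1 199 ± 29.5, Sult3a1 136 ± 44.3 and Sult2a8 106 ± 17.2 CPM per kilobase (SD, n = 6). The order depends on the length used, since the annotation gives Sult2a8 8 transcripts and 3284 exon bases but Sult2a1 1 transcript and 1020. Without division Sult2a8 (348 CPM) was above Sult2a1 (329.9 CPM) in Y665F females. For Sult2a2 the annotation holds 1 transcript of 741 bases, so its 75.1 CPM per kilobase in Y665F males may be set too high.

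Of the 9 other Sult rows, 7 could be tested, Sult2b1 was too low and Sult1c1 had 0 counts in every library. In Y665F males 6 of the 7 rose, where 27.2% of all genes were called higher, and in Y665F females 5 rose, where 17.8% were. With Y665H edgeR called 0 of the 7 in males and 0 in females, as did DESeq2, with 1 (Sult1b1) and 0 at an unadjusted p under 0.05. Sult2a3, a further Sult2a copy, had 0 counts in WT and Y665H males, 6.91 ± 2.16 CPM in Y665F males (SD, n = 9; edgeR adjusted p = 2.79e-12) and 1.84 ± 1.37 CPM in Y665F females against 0.128 ± 0.178 in WT females (SD, n = 6 each; log2 fold change 3.75, SE 0.59, edgeR adjusted p = 9.18e-06). With Y665F its levels in males (2.85 to 10.2 CPM) and females (0.669 to 4.33 CPM) overlapped. The medians of the 7 log2 fold changes were 6.44 in Y665F males and 1.59 in Y665F females.

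Sulfonation needs PAPS, which Papss1 and Papss2 make. The counts in the gene lists that follow stand against the shares called among all genes, 52.5% in Y665F males, 41% in Y665F females, 8.4% in Y665H males and 7.5% in Y665H females, and nothing is called particular to a list. Of 19 tested genes for sulfate and PAPS supply, 7 rose and 1 fell in Y665F males, 3 rose and 5 fell in Y665F females, 1 rose in Y665H males and 2 in Y665H females. Papss1 rose from 5.06 ± 0.318 CPM in WT males (SD, n = 6) to 14.2 ± 2.58 in Y665F males (SD, n = 9; log2 fold change 1.49, edgeR adjusted p = 4.48e-10) and 11.2 ± 1.61 in Y665H males (SD, n = 4; 1.14, edgeR adjusted p = 0.0001). In Y665F females Papss1 fell by 0.51 on the log2 scale (SE 0.17), given after its values were seen. Papss2, given after its values were seen, rose with Y665F by 1.04 in males (SE 0.10) and by 0.32 in females (SE 0.11). Ethe1, a mitochondrial persulfide dioxygenase of sulfide oxidation, fell in Y665F males (log2 fold change -0.63, edgeR adjusted p = 6.84e-05) and in Y665F females (-0.995, edgeR adjusted p = 1.07e-06). Of 12 tested sulfatases and their helpers, 2 rose and 2 fell in Y665F males, 3 rose and 5 fell in Y665F females, 1 rose and 1 fell in Y665H males and 1 rose in Y665H females. Arsa, the lysosomal arylsulfatase A, fell by 2.16 on the log2 scale in Y665F males (edgeR adjusted p = 6.85e-16) and by 1.15 in Y665F females (edgeR adjusted p = 2.30e-07), and rose by 0.84 in Y665H females (edgeR adjusted p = 0.00147).

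The substrates' own pathways were counted too. Of 17 tested genes of bile acid synthesis and conjugation, 3 rose and 10 fell in Y665F males, 11 fell in Y665F females, and 1 rose with Y665H in each sex. Cyp7a1, the rate-limiting enzyme of bile acid synthesis, rose by 2.60 on the log2 scale in Y665F males (edgeR adjusted p = 9.52e-08) and by 1.77 in Y665H males (edgeR adjusted p = 0.00313, higher in 3 of 4 mice), and Cyp7b1 fell by 2.31 in Y665F males (edgeR adjusted p = 2.06e-12). Of 17 tested transporters of bile acids and sulfated conjugates, 3 rose and 11 fell in Y665F males and 1 rose and 9 fell in Y665F females. With Y665H 3 fell in males, and 1 rose and 1 fell in females. Abcc4, an exporter that carries sulfated bile acids and steroids, rose from 3.96 ± 0.340 to 19.0 ± 3.29 CPM in Y665F males (SD, n = 6 and 9; log2 fold change 2.26, edgeR adjusted p = 4.50e-14) and by 2.06 in Y665F females (edgeR adjusted p = 7.87e-12). Slco1a1, an uptake carrier of sulfated steroids, fell by 4.09 in Y665F males (edgeR adjusted p = 7.97e-12) and by 2.48 in Y665F females (edgeR adjusted p = 4.65e-06).

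Of 23 tested genes of steroid hormone metabolism, 5 rose and 15 fell in Y665F males, 1 rose and 16 fell in Y665F females, 3 rose and 4 fell in Y665H males and 5 rose and 2 fell in Y665H females. Hsd3b5, a steroid dehydrogenase of male liver, fell from 298 ± 21.1 to 0.679 ± 0.283 CPM in Y665F males (SD, n = 6 and 9; edgeR adjusted p = 2.12e-17). Of 21 tested nuclear receptors and partners, 3 rose and 6 fell in Y665F males, 4 rose and 8 fell in Y665F females, 3 rose and 1 fell in Y665H males and 1 fell in Y665H females. Esr1, the estrogen receptor whose ligands Sult1e1 inactivates, rose by 2.67 in Y665F males (edgeR adjusted p = 2.23e-17) and by 0.84 in Y665F females (edgeR adjusted p = 1.20e-05), and fell by 0.53 in Y665H females (edgeR adjusted p = 0.0196). Of 19 tested genes of the growth hormone pathway and its sex-dependent regulators, 12 rose and 2 fell in Y665F males, 3 rose in Y665F females, 1 rose and 1 fell in Y665H males and 2 fell in Y665H females. Cux2 rose in Y665F males from 0.796 ± 0.140 to 112 ± 19.2 CPM (SD, n = 6 and 9; edgeR adjusted p = 3.31e-16) and fell in Y665H females by 1.30 on the log2 scale (edgeR adjusted p = 0.0119, lower than the WT mean in 5 of 6 mice). These lists were written with results of these data known and are not independent support for any direction. The genes named from them, and Sult2a3 above, were picked by the size of their change, so their adjusted p-values are descriptions only.

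Over all 37 libraries, the genes whose levels ranked most like each member were found among 12041 non-member genes. Spearman's rho is a description here, since the libraries share groups and sex, and it carries no p-value. Sult2a1 was most like Fam126a and Cyp2a4 (0.95 each), and Sult2a2 most like Naip2 (0.97) and Sybu (0.96). Sult2a5 was most like Sult2a6, another copy in the same cluster (0.96), and Naip2 (0.95). Sult3a1 was most like Cyp3a44 (0.94) and Nt5e (0.93), Sult2a8 most like Ugt2b5 (0.91) and Keg1 (0.90), and Sult2a7 most like Cenpv (0.90) and Gstt1 (0.88). Sult1a1 (Echdc3, 0.84 and Mmd2, 0.83), Sult1d1 (Ugt3a2, 0.80 and Iyd, 0.79) and Sult5a1 (Zfp444, 0.71 and Abca2, 0.70) had looser matches. Sult1e1 was too low in every group to enter.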

How the data were processed

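Liver RNA of 37 mice was measured. The authors deposited raw counts per gene symbol, whole numbers that were not normalized, judging from the values. Per the submitters' processing notes, FastQC 0.11.9, Trimmomatic 0.36, STAR, SAMtools 1.9, Picard 2.9.2, HTSeq 0.9.1 and the build mm10 were used. The annotation and the strand and multi-mapping settings are not given in the sources used here. The labels' protocols name library kits of different makers without saying which library had which. The 5 rows per file that name no gene held 32.4% to 49.9% of all items and were left out.

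Counts were fitted in R 4.3.3 with edgeR 4.0.16 (TMM, filterByExpr with minimum count 10 and minimum total 15, glmQLFit and glmQLFTest, a mean per group over all 37 libraries). This kept 15152 of 24421 genes. P-values were adjusted by Benjamini-Hochberg over all genes tested. Each SE is the size of the log2 fold change over the root of its F. The fit was tested on simulated data. DESeq2 1.42.0 and other settings served as alternatives. No replicates were near-identical: the smallest chi-square per degree of freedom between replicates was 9.28.

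The members and gene lists were chosen with earlier results of these data known. The genes named besides the members are, per list and comparison with WT, the called genes with the largest rise and fall among those with a mean of at least 1 CPM in a group, some of which are printed, and the 2 most alike genes of each member (Spearman's rho of log2 CPM, prior count 2). Saa2, Papss2, Sult1b1, Papss1 in Y665F females, Cux2 in single mice and the Sult2a copies of the promoter comparison were named outside this rule, after their values were seen. Coordinates and promoters are RefSeq's on GRCm38.p6. Coding sequences and exon lengths are GENCODE M21's, on the same assembly.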

Additional observations from a re-analysis of the deposited data

Results flagged for a closer look

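In groups of 4, 6 or 9 libraries, 10 of the 57 sets of a member and a group had 1 library farther from the rest than Dixon's 95% value allows. That value lets through about 1 in 20 for normal values in independent sets. CPM can be skewed, and Sult2a1, Sult2a2 and Sult2a5 moved together within groups (correlation of 0.976 or more), so nothing is read from the share flagged. The highest library stood apart for Sult2a1 in Y665H female replicate 1 (24.36 CPM), Sult2a5 in the same mouse (10.03 CPM), Sult2a7 in Y665H male replicate 3 (8.961 CPM), in Y665F female replicate 5 (0.1557 CPM, from 5 counts) and in Y665H female replicate 2 (71.69 CPM). It also stood apart for Sult2a8 in WT male replicate 5 (1029 CPM) and Y665F male replicate 8 (615 CPM), for Sult1e1 in Y665H female replicate 2 (2.097 CPM) and for Sult5a1 in Y665F female replicate 6 (44.11 CPM). The lowest library stood apart for Sult2a2 in Y665F female replicate 3 (25.77 CPM). Y665H female replicate 2 thus stood apart as the highest in 2 members, Sult2a7 and Sult1e1, while it was among the 3 lowest of its group in Sult2a1, Sult2a2 and Sult2a5. Y665F male replicate 8, highest in Sult2a8, had the lowest Sult2a1 of its group (117 CPM).

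The interaction term for Y665F and sex was called for 9 members, a description only, since the members were chosen on these same contrasts. The log2 fold change in males minus that in females was 9.615 for Sult2a1, 12.64 for Sult2a2, 11.03 for Sult2a5, 6.874 for Sult2a7, 12.06 for Sult3a1, 4.781 for Sult1e1, 0.9078 for Sult1a1, 0.6748 for Sult1d1 and -0.6909 for Sult2a8. For Sult2a2 and Sult2a5 WT males had 0 counts, so these fitted values depend on the prior count and are no bound.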

How the results depend on the processing

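No result changed direction past its threshold under any alternative run. In Y665H males 1273 genes were called, 2186 when only the groups compared were fitted, and 519 to 1124 with single libraries left out, with 519 without Y665H male replicate 3, 644 without replicate 2 and 799 without WT male replicate 5. The members called there were 1, and 3 by DESeq2, which added Sult2a1 and Sult2a2. In Y665H females 1136 genes were called, 757 with no filter on low counts, 80 when only the groups compared were fitted and 442 to 2743 with single libraries left out, with 2743 without Y665H female replicate 6, 442 without replicate 2, 689 without replicate 5, 697 without WT female replicate 2 and 645 without WT female replicate 5. The 4 members called there became 2 with no filter, 1 when only the groups compared were fitted and 2 to 4 with single libraries left out, falling to 2 without WT female replicate 2 or 4 or Y665H female replicate 2 or 5. Sult2a7 was called in all of these. The 5 members called in Y665F females became 4 with no filter or DESeq2, 6 with the replicate block or only the groups compared and 4 to 6 with single libraries left out. With only the groups compared, the 7 called in Y665F males became 6, as Sult1e1 was not tested, and the 8 between WT males and females became 6, as Sult1e1 and Sult2a5 were not. Between Y665F males and females 3 members were called, and 5 when only these groups were fitted. Sult2a8 lost its call there without Y665F male replicate 5 or 8 or female replicate 1, 2, 4 or 6, and with no filter, thinning, the block or only these groups, leaving 2 members in all of these but the last. Between Y665H males and females 4676 genes and 8 members were called, and 2292 and 5 when only these groups were fitted. The Y665H interaction had 794 genes and 0 members called, 1242 and 2 by DESeq2, and 332 to 1355 and 0 to 1 with single libraries left out, with 332 without Y665H male replicate 3 and 1355 and 1 without Y665H female replicate 6. Sult2a5 in Y665F females lost its call in 10 of 12 fits with a library left out, all but those without WT or Y665F replicate 3. In Y665H females Sult2a8 lost its call in 8 of 12 (without WT replicate 1, 2, 4, 5 or 6 or Y665H replicate 2, 3 or 5) and Sult3a1 in 6 of 12 (without WT replicate 2, 3 or 4 or Y665H replicate 2, 4 or 5). No cause was tested. Scaling by RLE and thinning to 24388434 counts moved no such count by over 1.5 times. Replicate numbers did not pair the samples (same-numbered samples correlated between -0.21 and 0.16). With the replicate block 7144 genes were called in Y665F males, 5978 in Y665F females, 909 in Y665H males and 920 in Y665H females. Male and female depths do not overlap and members with few counts (Sult1e1, and Sult2a1, Sult2a2, Sult2a5 and Sult3a1 in WT and Y665H males) carry only counting-level precision.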
